A study of Homo sapiens with 12 samples.

Results

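The snoRNA host genes described here are 29 rows of a count table of 57704 human genes: every gene whose symbol is SNHG followed by a number, together with GAS5, ZFAS1, TAF1D, EPB41L4A-AS1, C6orf48, DANCR, LRRC75A-AS1 and MIR17HG, as long as at least 1 tag was counted. A further row, SNHG14, matched by name but had no count. In RefSeq, 28 of the 29 genes hold at least 1 snoRNA or small Cajal body RNA gene within their span. The exception is MIR17HG, which holds 6 microRNA genes and no snoRNA. The counts come from HEK293 CRL-1573, a long-established line from human embryonic kidney, in a stable derivative that expresses the intron-DARP-EGFP reporter, an endogenous intronic sequence joined to DARP and EGFP. All 12 libraries carry this reporter, and none was made from cells without it. In 6 libraries the cells had received a pool of siRNAs against SUPT4H1 (SPT4, the small subunit of the transcription elongation factor DSIF), and in the other 6 scrambled siRNAs, each at 100 nM. Total RNA was taken from 1000000 cells per lysate 72 hours after transfection, and ERCC standards were added to the lysates, mix 2 with SUPT4H1 siRNA and mix 1 with scrambled siRNA. The transfections were made side by side from 1 starting culture. The p-values below set the difference between the siRNA groups against the spread between transfections of that single culture. The sample labels write the time as hours post-infection and the protocol as hours post transfection, and the protocol's wording is used here.

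SnoRNAs are short nuclear RNAs that guide chemical modification of other RNAs: box C/D snoRNAs guide ribose methylation and box H/ACA snoRNAs guide pseudouridylation of ribosomal RNA, while small Cajal body RNAs (scaRNAs) act on the RNAs of the spliceosome. In human cells nearly all of them are cut out of the introns of longer host transcripts during splicing, so the host's spliced exons and its snoRNAs come from the same precursor. Many hosts code for no protein, are degraded by nonsense-mediated decay once they reach ribosomes, and begin with a 5′ terminal oligopyrimidine (TOP) stretch like that of ribosomal protein mRNAs. The libraries read the 3′ ends of polyadenylated RNA, so the values below are of polyadenylated host RNA. The tags do not show whether that RNA was spliced. Mature snoRNAs, which have no poly(A) tail, are outside the assay.

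The annotated starts are shown because several hosts that moved together carry the start feature that the group is known for. RefSeq starts (GRCh38.p14) were at hand for 24 of the 29 genes. Each line gives 10 bases before and 20 bases from the annotated start, 5′ to 3′ on the gene's strand, with the unbroken run of C and T that opens at the start base in capitals. The first 6 are the tested hosts with a run of at least 5, and the last 4 are hosts with shorter or no runs: SNHG7, EPB41L4A-AS1 and GAS5 are among the members with the largest changes, and SNHG1 is a long-known host.
TAF1D (chr11:93741476-93741505, minus strand): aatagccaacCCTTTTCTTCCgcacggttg
SNHG12 (chr1:28581854-28581883, minus strand): gcttcagcgcCCTTTCTCCCCgccgcattc
C6orf48 (chr6:31834906-31834935, plus strand): cattttagttCTTTTTgcgaagtgggctcg
SNHG19 (chr16:2155339-2155368, minus strand): ccgcccctgtCTTTTCggggtcgagtccga
ZFAS1 (chr20:49278632-49278661, plus strand): gccattcgttCTTTCgcgtctgcggtgccc
SNHG5 (chr6:85678714-85678743, minus strand): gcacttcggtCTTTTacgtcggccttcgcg
SNHG7 (chr9:136728165-136728194, minus strand): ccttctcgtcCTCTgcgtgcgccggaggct
SNHG1 (chr11:62855866-62855895, minus strand): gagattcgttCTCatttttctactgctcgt
EPB41L4A-AS1 (chr5:112160516-112160545, plus strand): tcatgaattcTgtcgggtcccaaaatacgt
GAS5 (chr1:173869026-173869055, minus strand): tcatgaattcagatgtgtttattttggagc
A run of at least 5 opened 8 of the 24 host starts (33.3%), against 5.17% of 35116 annotated starts of all genes. Counted by gene, 7.15% of 14162 genes with at least 1 count had such a run at any of their starts. The other 2 of these 8 belong to SNHG4 and SNHG18, which had too few counts to test. An annotated start need not be the start used in these cells, and 3′ tags do not show where transcripts begin. For GAS5 the RefSeq window shown lies outside the GENCODE gene, whose 5′ end is at 173868882, so its lack of a run holds for the RefSeq start only.

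Across the series, endogenous counts summed to between 6591194 and 20269171 per library. The mRNA of SUPT4H1, the targeted gene, averaged 184 CPM (SD 9.11) in the 6 scrambled libraries but 20.8 CPM (SD 1.63) in the 6 SUPT4H1 libraries, a log2 fold change of −3.14 (SE 0.08). CPM are counts per 1000000 endogenous counts after TMM scaling, which sets the bulk of genes at no change, and fold changes on this scale are called relative. All 8 listed markers of the HEK293 line reached 1 CPM. Their sum was 1678 to 2213 CPM with scrambled siRNA and 1382 to 1509 CPM with SUPT4H1 siRNA, with 2 of the 8 called lower and 1 higher. Summed markers of leukocytes, endothelium, erythroid cells and hepatocytes stayed at or below 1.82 CPM in every library. The 5 fibroblast markers summed to 7.34 to 13.6 CPM with scrambled siRNA and 8.21 to 13.3 CPM with SUPT4H1 siRNA, and 2 of the 3 that could be tested were called higher. The part of these marker changes in the results was not tested. Of 13811 genes with enough counts to test, edgeR's quasi-likelihood test with Benjamini-Hochberg adjustment (threshold 0.05) called 20.2% lower and 20% higher with SUPT4H1 siRNA.

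Most snoRNA host genes fell when SUPT4H1 was depleted. Of the 29 members, 25 had enough counts to test, and 20 of these 25 were called lower, 1 (SNHG21) higher and 4 (MIR17HG, SNHG20, SNHG8 and SNHG9) neither, beside the background of 20.2% called lower and 20% called higher. The median relative log2 fold change was −0.69 over the 25 tested members and −0.00 over all genes tested. Tested genes that do not code for protein, the class to which all but 2 members belong, were called lower in 20.4% of cases, with a median of −0.11. In 17 of the 25 members, all 6 SUPT4H1 libraries lay below all 6 scrambled libraries, which was so for 10.2% of all genes tested. For 7 members the fall exceeded 1 on the log2 scale, against 2.12% of all genes: SNHG7, GAS5, ZFAS1, EPB41L4A-AS1, C6orf48, SNHG25 and SNHG15. Of the 21 members that averaged at least 5 CPM in a group, 19 were called lower, beside 22% of all genes at that level. The filter on low counts could be passed on counts from either group, and the 4 members that did not pass it are given below.

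**Figure D1:**
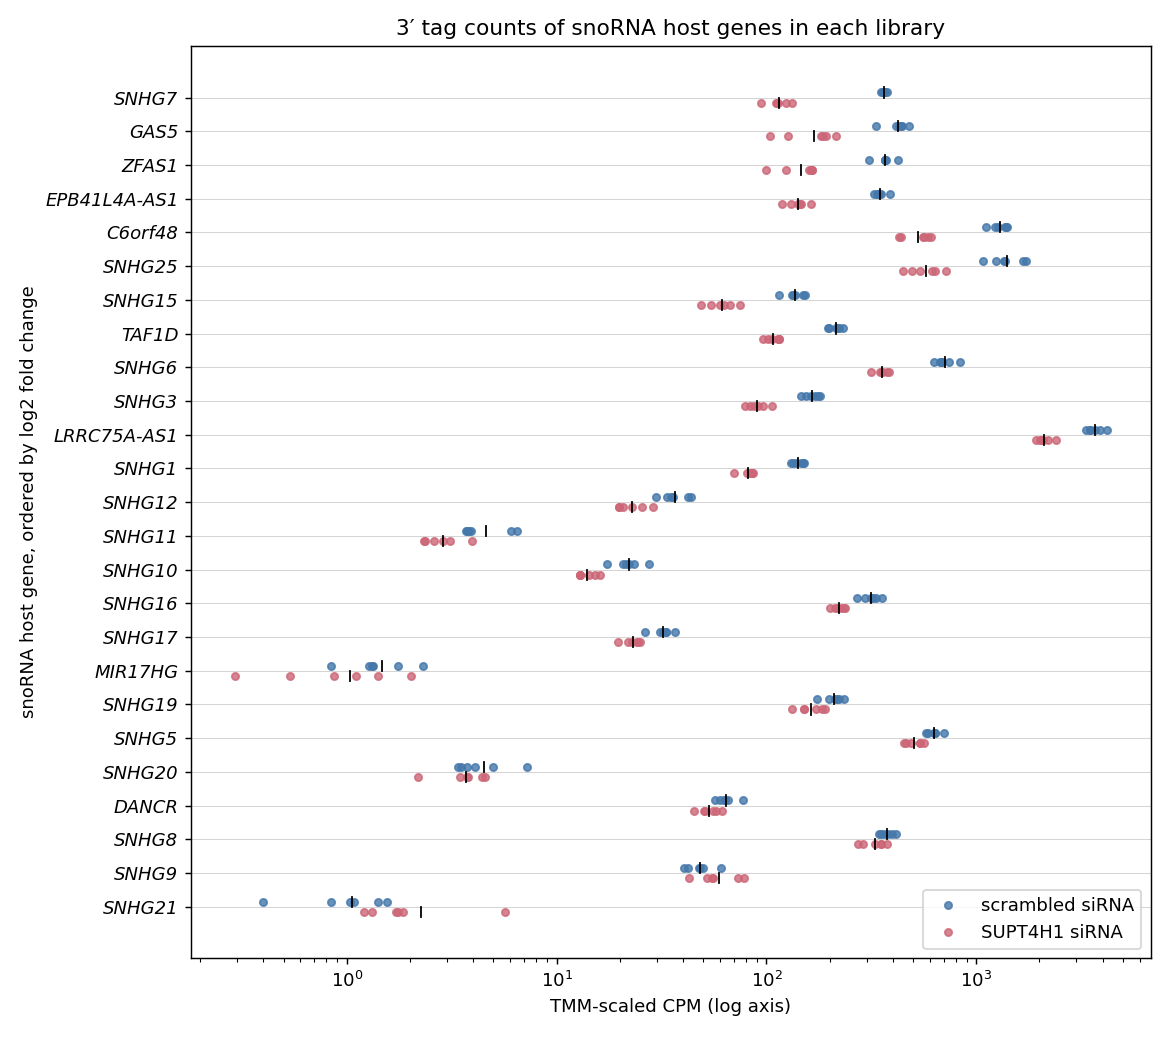
TMM-scaled CPM (log axis) of the 25 tested snoRNA host genes in each of the 12 libraries, ordered by log2 fold change from the largest fall at the top; points are libraries, black ticks are group means. For SNHG7 the scrambled libraries lie between 352 and 374 CPM and the SUPT4H1 libraries between 94.0 and 132 CPM, whereas the groups overlap for SNHG9 and SNHG8.

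Together the 29 genes held 1.08% ± 0.04 (SD, n = 6) of endogenous counts with scrambled siRNA and 0.596% ± 0.032 (SD, n = 6) with SUPT4H1 siRNA. The scrambled libraries ranged from 1.02% to 1.13% and the SUPT4H1 libraries from 0.560% to 0.646%, so the groups did not overlap. LRRC75A-AS1 alone supplied 34.2% of all member counts. Without it the share went from 0.720% ± 0.036 to 0.382% ± 0.021 (SD, n = 6 each), or 53.1% of the scrambled level, beside 55.1% with it.

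**Figure D2:**
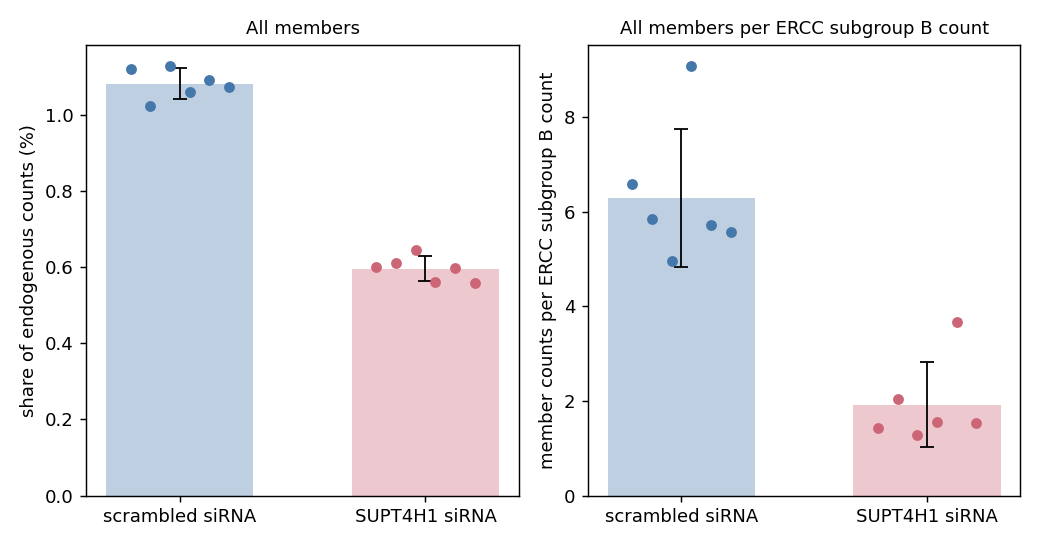
Share of endogenous counts that fell on the 29 snoRNA host genes (left, percent) and their counts per count of ERCC subgroup B (right), by group; bars are means, error bars SD over 6 libraries, points single libraries. The share lies between 1.02% and 1.13% with scrambled siRNA and between 0.560% and 0.646% with SUPT4H1 siRNA, and in the right panel SUPT4H1 siRNA replicate 5 stands at 3.68, above the rest of its group.

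Among the hosts of box C/D snoRNAs only, all 8 tested genes were called lower, with a median log2 fold change of −0.80. ZFAS1 (chromosome 20, 49278178 to 49295738, plus strand, GRCh38), which starts head to head with ZNFX1 and hosts the SNORD12 family, stood between 309 and 425 CPM (median 367) with scrambled siRNA and between 99.9 and 166 CPM (median 161) with SUPT4H1 siRNA. No library of one group reached the other, and the log2 fold change was −1.33 (SE 0.11, adjusted p = 1.91e-08 in edgeR). C6orf48 (chromosome 6, 31834608 to 31839766, plus strand), listed in RefSeq as SNHG32 and annotated as protein-coding in the table, hosts SNORD48 and SNORD52. It went from 1118 to 1397 CPM (median 1321) to between 428 and 606 CPM (median 560), again with no overlap, a log2 fold change of −1.29 (SE 0.10, adjusted p = 2.30e-09 in edgeR). SNHG6, host of SNORD87, stood between 631 and 838 CPM (median 681) and between 317 and 386 CPM (median 355), a log2 fold change of −0.99 (SE 0.08, adjusted p = 7.30e-09 in edgeR). All SUPT4H1 libraries lay below all scrambled ones for this gene as well.

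LRRC75A-AS1 (chromosome 17, 16438822 to 16478678, plus strand), called SNHG29 in RefSeq and host of SNORD49A, SNORD49B and SNORD65, was counted at 3341 to 4191 CPM (median 3574) with scrambled siRNA. With SUPT4H1 siRNA it stood between 1919 and 2399 CPM (median 2058), without overlap, and its log2 fold change was −0.80 (SE 0.08, adjusted p = 1.57e-07 in edgeR). SNHG1, the host whose introns hold SNORD22 and SNORD25 to SNORD31, was between 130 and 151 CPM (median 142) and then between 69.9 and 86.5 CPM (median 84.3), a log2 fold change of −0.79 (SE 0.07, adjusted p = 5.00e-08 in edgeR). Its 8 box C/D snoRNA genes make it the richest of the hosts with this class alone that could be tested. Falls of less than 1.5-fold were measured for SNHG16, which hosts the SNORD1 family, at −0.51 (SE 0.08), for SNHG19, host of SNORD60, at −0.36 (SE 0.09), and for SNHG5, host of SNORD50A and SNORD50B, at −0.31 (SE 0.08). The SNHG5 libraries stood between 574 and 698 CPM and between 452 and 564 CPM, so even this small fall separated the groups. The SNHG19 libraries overlapped, at 174 to 233 CPM against 132 to 189 CPM.

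Hosts that carry both classes of snoRNA, 4 genes, were all called lower, with a median log2 fold change of −1.14 and no overlap between groups in any of them. GAS5 (chromosome 1, 173863900 to 173868882, minus strand), known as a growth-arrest transcript with short-lived spliced RNA, holds 10 box C/D genes and 1 H/ACA gene, the most of any tested member. Its libraries ranged from 332 to 476 CPM (median 434) with scrambled siRNA and from 104 to 214 CPM (median 184) with SUPT4H1 siRNA. The log2 fold change was −1.33 (SE 0.15, adjusted p = 5.63e-06 in edgeR), with SUPT4H1 siRNA replicates 6 (104 CPM) and 4 (127 CPM) the lowest. SNHG25 (chromosome 17, 64145970 to 64146476, plus strand), a compact host of SNORD104 and SNORA50C, stood between 1079 and 1721 CPM (median 1359) and between 447 and 720 CPM (median 579). Its log2 fold change of −1.29 (SE 0.12, adjusted p = 1.71e-07 in edgeR) came with a spread of 17.6% and 17.4% of the mean (coefficient of variation) in the groups.

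TAF1D (chromosome 11, 93729948 to 93784391, minus strand) is, with C6orf48, 1 of the 2 members annotated as protein-coding, and encodes a subunit of the SL1 factor that places RNA polymerase I on ribosomal DNA. Its introns hold 2 box C/D and 6 H/ACA genes. It was at 197 to 232 CPM (median 217) with scrambled siRNA and at 96.0 to 115 CPM (median 109) with SUPT4H1 siRNA, a log2 fold change of −0.99 (SE 0.07, adjusted p = 1.93e-09 in edgeR). SNHG12, host of SNORD99 and 3 H/ACA genes, stood between 29.6 and 43.8 CPM (median 35.4) and between 19.8 and 28.7 CPM (median 21.7). The log2 fold change of SNHG12 was −0.69 (SE 0.11, adjusted p = 7.14e-05 in edgeR).

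Hosts of box H/ACA snoRNAs only were more mixed: 7 of 9 tested genes were called lower and 2 were not called, with a median of −0.69. SNHG7 (chromosome 9, 136721366 to 136728184, minus strand), host of SNORA17A and SNORA17B, had the lowest log2 fold change of all 25 tested members. With scrambled siRNA its 6 libraries lay between 352 and 374 CPM (median 361), a spread of 2.05% of the mean, and with SUPT4H1 siRNA between 94.0 and 132 CPM (median 112). That is a log2 fold change of −1.66 (SE 0.08, adjusted p = 3.04e-12 in edgeR), which leaves 31.6% of the scrambled level. Among the 13811 genes tested, 58 (0.420%) had a lower log2 fold change. EPB41L4A-AS1 (chromosome 5, 112160526 to 112164276, plus strand), host of SNORA13, fell from 324 to 390 CPM (median 344) to between 118 and 163 CPM (median 143), a log2 fold change of −1.31 (SE 0.08, adjusted p = 1.72e-10 in edgeR). SNHG15 (chromosome 7, 44983023 to 44986961, minus strand), host of SNORA9, went from 115 to 153 CPM (median 135) to between 49.0 and 74.6 CPM (median 61.5), at −1.16 (SE 0.10, adjusted p = 1.09e-08 in edgeR). The groups stood apart for all 3 of these genes.

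SNHG3, whose introns hold SNORA73A and SNORA73B (U17, an H/ACA RNA used in ribosomal RNA cleavage), was at 147 to 179 CPM (median 167) and then at 79.1 to 106 CPM (median 89.0), with no overlap. Its log2 fold change was −0.86 (SE 0.08, adjusted p = 5.51e-08 in edgeR). SNHG17, which carries the 4 genes SNORA71A to SNORA71D, had a log2 fold change of −0.48 (SE 0.10, adjusted p = 0.000477 in edgeR). SNHG11, host of SNORA60 and SNORA71E, rested on few counts, 16 to 110 per library. Its log2 fold change was −0.69 (SE 0.21, adjusted p = 0.0114 in edgeR), and its groups overlapped at 3.68 to 6.46 CPM against 2.34 to 3.93 CPM.

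DANCR, host of SNORA26 and best known as a transcript that holds back differentiation, fell least of the called members. It was at 56.9 to 77.2 CPM (median 63.1) with scrambled siRNA and at 45.1 to 61.2 CPM (median 53.2) with SUPT4H1 siRNA, and the groups overlapped. The log2 fold change of −0.27 (SE 0.09, adjusted p = 0.0195 in edgeR) did not pass when scrambled siRNA replicate 6 (−0.20, adjusted p = 0.0741) or SUPT4H1 siRNA replicates 1, 2 or 5 were left out one at a time (adjusted p 0.0521, 0.0531 and 0.0591). With the RNA integrity number as a covariate it was −0.21 (adjusted p = 0.101 in edgeR), and 19 members were called lower. SNHG8, host of SNORA24, stood between 343 and 415 CPM and between 274 and 375 CPM, with a log2 fold change of −0.19 (SE 0.08, adjusted p = 0.0725 in edgeR). Leaving out SUPT4H1 siRNA replicate 3 brought SNHG8 to −0.23 with an adjusted p of 0.0369.

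SNHG9 (chromosome 16, 1964959 to 1965509, plus strand), host of SNORA78, went the other way in its relative value. Its libraries ranged from 40.2 to 60.8 CPM (median 47.8) with scrambled siRNA and from 42.7 to 78.5 CPM (median 55.3) with SUPT4H1 siRNA, so the groups overlapped. The log2 fold change of 0.30 (SE 0.13, adjusted p = 0.0716 in edgeR) did not pass the threshold, and with scaling to spike-ins it was −0.55 (adjusted p = 0.116). It did pass without scrambled siRNA replicate 6 (0.39, adjusted p = 0.0208) and without SUPT4H1 siRNA replicate 6 (0.38, adjusted p = 0.0120).

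The 3 tested hosts of scaRNAs did not share a direction: SNHG10 was called lower, SNHG21 higher and SNHG20 neither. SNHG10 (chromosome 14, 95532297 to 95534872, minus strand), host of SCARNA13, stood between 17.4 and 27.6 CPM (median 21.7) and between 12.9 and 16.0 CPM (median 13.6), with no overlap and a log2 fold change of −0.65 (SE 0.11, adjusted p = 0.000129 in edgeR). SNHG20, host of SCARNA16, had a log2 fold change of −0.28 (SE 0.21, adjusted p = 0.313 in edgeR). SNHG21, host of SCARNA15, was counted 6 to 27 times per scrambled library and 13, 13, 14, 16, 21 and 39 times in the SUPT4H1 libraries. The 39 counts were in SUPT4H1 siRNA replicate 6, where it stood at 5.70 CPM against at most 1.84 CPM in the other libraries of its group. Its log2 fold change of 1.01 (SE 0.38, adjusted p = 0.0374 in edgeR) became 0.55 (adjusted p = 0.166) without that library, and the call was also lost without scrambled siRNA replicates 2, 4, 5 or 6 (adjusted p 0.0558 to 0.0751).

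MIR17HG, the host of the miR-17 to miR-92a cluster rather than of snoRNAs, was counted 2 to 30 times per library and had a log2 fold change of −0.45 (SE 0.34, adjusted p = 0.316 in edgeR). The 4 members with too few counts to test were SNHG4 with 37 counts over all 12 libraries, SNHG22 with 20, SNHG23 (MEG8 in GENCODE) with 9 and SNHG18 with 2. No direction can be read for these 4 at this depth.

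Scaling to spike-ins set the same values against a nominally fixed amount of added RNA. Counts were divided by the sum over 23 standards, ERCC subgroup B, whose nominal amount is the same in both mixes, and on this scale 59% of all genes tested were called lower and 0.311% higher, with a median log2 fold change of −0.82. Of the 25 tested members 23 were called lower and the other two were not called, with a median of −1.54. SNHG7 was lowest at −2.48 (SE 0.33, adjusted p = 5.02e-11 in edgeR), followed by GAS5 at −2.14 (SE 0.32, adjusted p = 1.41e-08 in edgeR). SNHG9 at −0.55 (SE 0.32) and SNHG21 at 0.22 (SE 0.42, adjusted p = 0.637 in edgeR) were not called. MIR17HG (−1.43), SNHG20 (−1.11) and SNHG8, not called on the relative scale, were called lower on this one. SUPT4H1 siRNA replicate 5 had the smallest share of counts on ERCC standards in its group. Without it 24 members were called lower, and the number of all genes called lower rose from 8152 to 12320. Each lysate is listed as 1000000 cells, so this scale is nominally per cell. The counts do not show how many cells were lysed, so fewer cells and less RNA per cell cannot be told apart in bulk lysates. The mix and the siRNA group coincide, so a difference in the standards added cannot be told apart from these either. Of the 23 standards, 7 reached 20 counts in every library. Set against the subgroup sum, these 7 differed between the groups by −0.24 to 0.30 on the log2 scale.

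**Figure D3:**
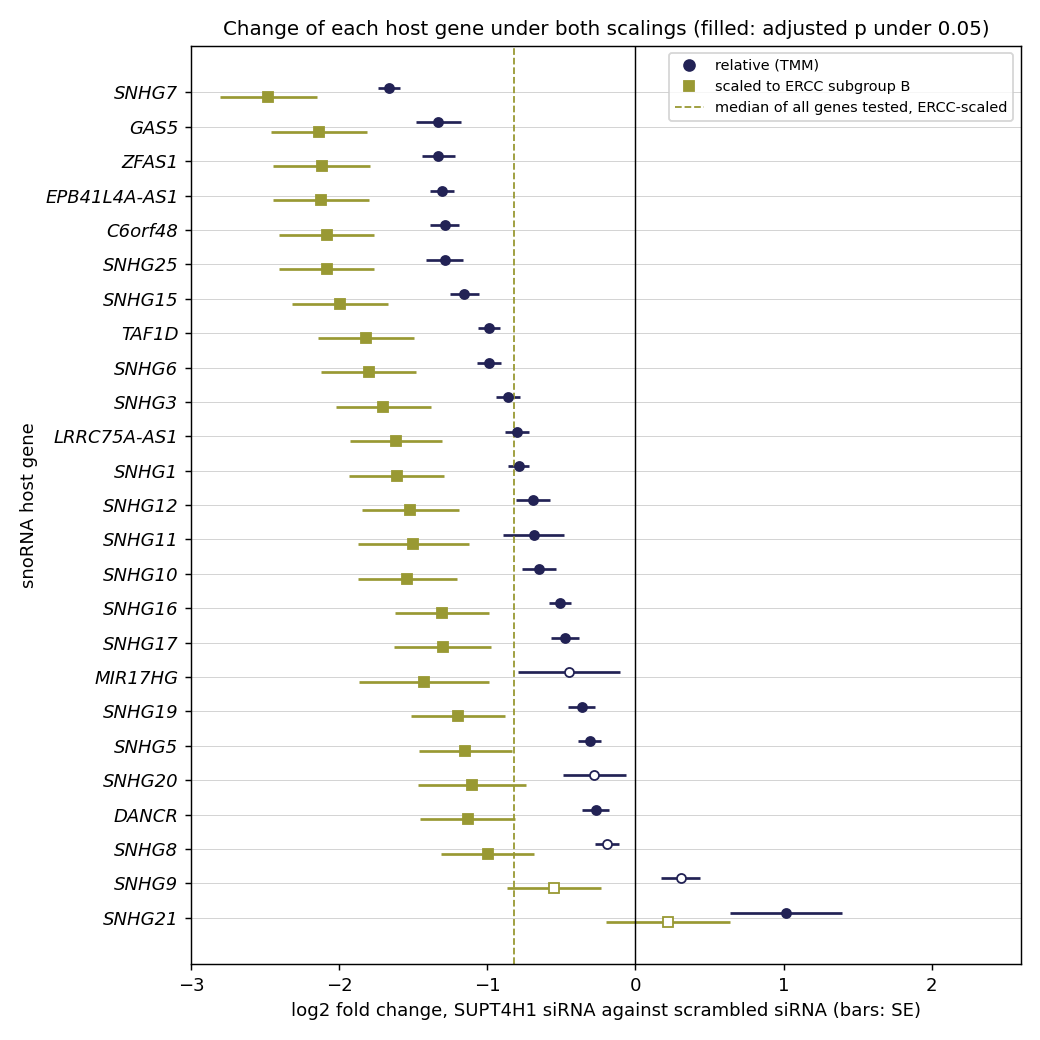
Log2 fold change (SUPT4H1 siRNA against scrambled siRNA, x axis, with SE) of each tested snoRNA host gene on the relative scale (circles) and scaled to ERCC subgroup B (squares); filled symbols have an adjusted p under 0.05, and the dashed line marks the median of all genes on the spike-in scale, −0.82. Relative values run from −1.66 (SNHG7) to 1.01 (SNHG21), and 23 of 25 spike-in-scaled values are called lower.

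Among the 25 tested members, the relative log2 fold change was set against measured features of the genes, as a description across genes with no test. Spearman's rho was −0.45 with the number of snoRNA and scaRNA genes, −0.54 with the log2 CPM in the scrambled group, −0.27 with the largest number of exons in a transcript and −0.05 with the length of the gene. The scrambled level is also the denominator of the fold change, so a negative rho with it is partly built in. All 25 values come from the same 12 libraries, and genes with higher counts have smaller errors. The 6 tested members with a pyrimidine run of at least 5 at the start were all called lower, with a median of −0.84. Of the 15 tested members with an annotated start and a shorter run, 11 were called lower and 1 higher, with a median of −0.65. The 4 tested members with no start at hand had a median of −1.07, with 3 called lower. Among all tested genes with a start at hand, the 769 with a run of at least 5 had a median of −0.09 (29.9% called lower). The 8942 with a shorter run or none had a median of 0.02 (19.4% called lower).

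The libraries of a group did not move as 1 block across the members. Averaged over members, SUPT4H1 siRNA replicate 6 had the lowest mean log2 deviation from the scrambled group (−0.87) and replicate 3 of the same group the highest (−0.55). Replicate 6 held the lowest value of its group in 13 of the 25 tested members, and replicate 3 the highest in 14. Replicate 6 also stood apart beyond the members. In the check for copied libraries, its pairs within the group gave a chi-square of 19.4 to 34.7 per degree of freedom. The group's other pairs gave 4.45 to 8.28, and scrambled pairs 6.12 to 28.96. All genes called lower rose from 2789 to 3000 without replicate 6, and fell when any other library was left out. Whether its low values are particular to the members was not tested. Leaving out SUPT4H1 siRNA replicate 6 left all 20 calls of a fall in place.

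Rows for the small RNAs nested in these hosts held few counts. Of 110 such rows in the table, 14 had at least 1 count and 3 had enough to test. SCARNA13 (chromosome 14, 95533355 to 95533629, minus strand, within SNHG10), a scaRNA, was counted 25, 79, 47, 19, 54 and 51 times in scrambled siRNA replicates 1 to 6 and 2, 2, 3, 1, 2 and 0 times in SUPT4H1 siRNA replicates 1 to 6. Every SUPT4H1 library lay below every scrambled one, and the totals were 275 counts with scrambled siRNA against 10 with SUPT4H1 siRNA. It passed the filter on low counts only through the scrambled group, and with so few counts in the other the fitted log2 fold change of −3.99 (SE 0.39, adjusted p = 1.05e-07 in edgeR) is an uncertain size. Its host SNHG10 stood at 63.8% of its scrambled level. The other testable rows were SNORD104 within SNHG25 at −0.16 (SE 0.26, adjusted p = 0.651 in edgeR) and SNORD6 within TAF1D at −0.25 (SE 0.36, adjusted p = 0.607 in edgeR), neither of which passed, while their hosts fell by 1.29 and 0.99. The difference between a nested row and its host was not tested, and how reads that lie in both were assigned is not given in the sources used here.

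Several members start head to head with, or lie across, another gene, and some of these partners had values unlike those of the host. RPS2, a ribosomal protein gene that starts 99 bases from SNHG9, was between 811 and 1205 CPM (median 1082) with scrambled siRNA and between 370 and 816 CPM (median 748) with SUPT4H1 siRNA, a log2 fold change of −0.64 (SE 0.16, adjusted p = 0.00472 in edgeR), beside 0.30 for SNHG9. SLC3A2, an amino acid transporter subunit whose start lies 188 bases from that of SNHG1, fell by 0.43 (SE 0.09, adjusted p = 0.000425 in edgeR). ZNFX1, 248 bases from ZFAS1, had a log2 fold change of 0.41 (SE 0.12, adjusted p = 0.0108 in edgeR), and ZBTB37, 800 bases from GAS5, one of 0.37 (SE 0.11, adjusted p = 0.0108 in edgeR). Both were higher where their hosts were lower, and with spike-in scaling both lay below 0, at −0.42 and −0.45. ZNFX1 and ZBTB37 also overlap their hosts and are among the overlapping genes counted as higher below. TRAF7 beside SNHG19 (0.06, SE 0.09, adjusted p = 0.645 in edgeR) and MED17 across from TAF1D (0.21, SE 0.15, adjusted p = 0.277 in edgeR) were not called. With spike-in scaling both lay below 0, at −0.78 and −0.58. Distances between starts were taken from the ends of GENCODE genes. For TAF1D that end is 93784391, near the start of MED17. The RefSeq start of TAF1D shown above lies within 93741476 to 93741505, away from MED17.

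Genes that overlap a host bear on the counts, since the strand setting of the counting is not given in the sources used here. Of 16 such genes that had a symbol in the table and were tested, 5 were called lower, 4 higher and 7 neither, beside 20.2% and 20% of all genes. GLRX5, a mitochondrial iron-sulfur protein gene across from SNHG10, stood between 89.7 and 96.9 CPM (median 91.7) with scrambled siRNA and between 134 and 158 CPM (median 156) with SUPT4H1 siRNA, higher in every library. Its log2 fold change was 0.71 (SE 0.07, adjusted p = 5.74e-08 in edgeR), beside −0.65 for SNHG10, and −0.10 with spike-in scaling. GAS5-AS1, across from GAS5, was counted 111 times in all, 2 to 16 times per scrambled library and 3 to 18 times per SUPT4H1 library. It passed the filter on low counts mostly through the SUPT4H1 group, where it was higher. Its log2 fold change of 1.67 (SE 0.46, adjusted p = 0.00676 in edgeR) is therefore an uncertain size. The groups overlapped, and it was not called with spike-in scaling (0.94, adjusted p = 0.0775). FAM69B, across from SNHG7, fell by 0.67 (SE 0.13, adjusted p = 0.000396 in edgeR), and RCC1, on the same strand as SNHG3, by 0.44 (SE 0.08, adjusted p = 0.000172 in edgeR). LRRC75A, across from LRRC75A-AS1, fell by 0.52 (SE 0.19, adjusted p = 0.0350 in edgeR), a call lost in 7 of the 12 fits that leave out a library (adjusted p up to 0.108). C11orf54, across from TAF1D, had a log2 fold change of −0.44 (SE 0.11, adjusted p = 0.00340 in edgeR), lower like its host, and MYO5B, across from the untested SNHG22, one of −0.56 (SE 0.12, adjusted p = 0.00120 in edgeR). TRNAU1AP across from SNHG12 (0.08, SE 0.09) and EPB41L4A across from EPB41L4A-AS1 (0.08, SE 0.17) were not called and lay below 0 with spike-in scaling, at −0.76 and −0.74. Among the 13 tested members with no gene annotated on the opposite strand, 9 were called lower and 4 were not called, with a median of −0.48.

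**Figure D4:**
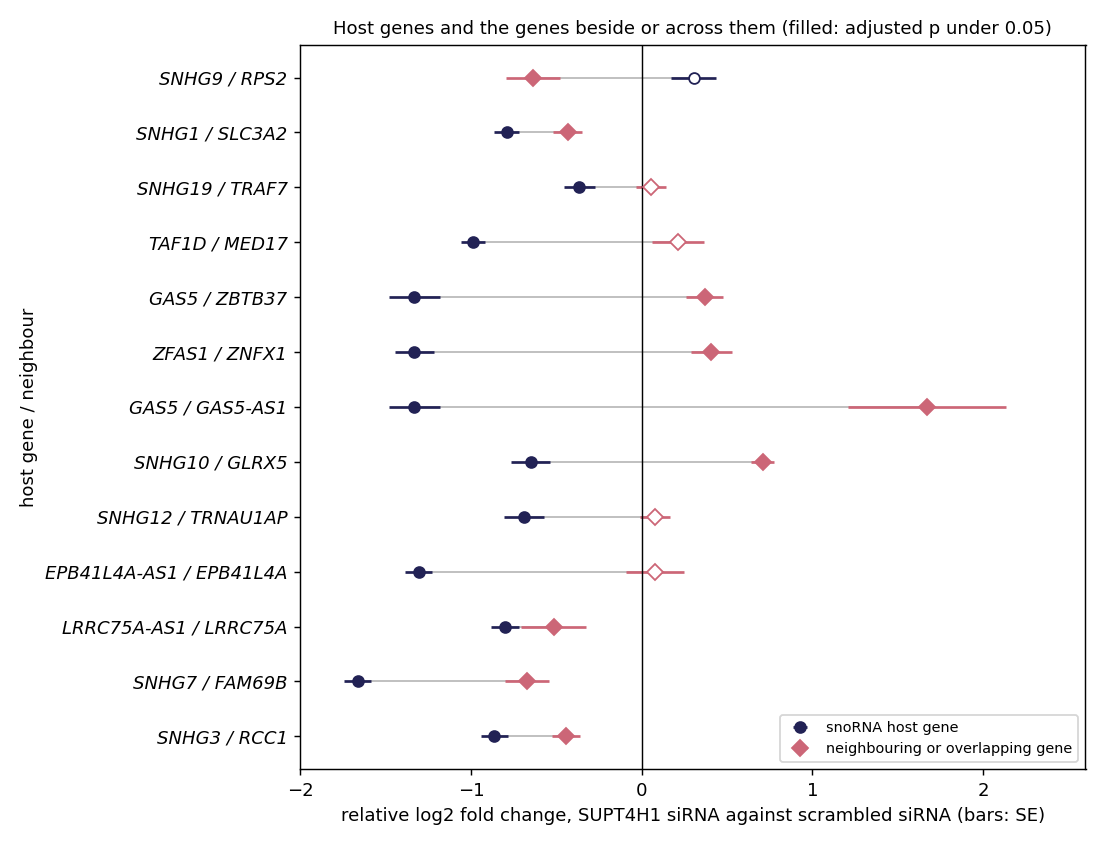
Relative log2 fold change (x axis, with SE) of snoRNA host genes (circles) and of a gene that starts beside or lies across each of them (diamonds); filled symbols have an adjusted p under 0.05. GLRX5 at 0.71 and GAS5-AS1 at 1.67 lie on the other side of 0 from SNHG10 and GAS5, RPS2 at −0.64 lies below SNHG9 at 0.30, and RCC1, FAM69B, LRRC75A and SLC3A2 lie below 0 with their hosts.

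Genes that share the pathway were read from 8 lists. Protein-coding hosts of snoRNAs showed smaller values than the members: of 26 ribosomal protein hosts, 18 were called lower and 1 higher, with a median of −0.36. RPS3A fell by 0.84 (SE 0.10, adjusted p = 2.33e-06 in edgeR), RPSA by 0.80 (SE 0.11, adjusted p = 7.41e-06 in edgeR), RPL21 by 0.77 (SE 0.10, adjusted p = 3.03e-06 in edgeR) and RPL23A by 0.69 (SE 0.09, adjusted p = 3.10e-06 in edgeR). The 56 other tested ribosomal protein genes, which are outside that list, had nearly the same median, −0.34, with 33 called lower and 1 higher. Of 28 other protein-coding hosts 8 were called lower and 1 higher, with a median of −0.10, beside a background of 20.2% of all genes called lower and 20% higher. Of the 8 core proteins that bind snoRNAs, NHP2 (−0.46, SE 0.09) and NOP10 (−0.31, SE 0.11) were called lower, beside the same background. The 5 not called were DKC1 (0.17), GAR1 (0.04), SNU13 (−0.13), FBL (−0.17) and NOP56 (−0.19), and the median of the 8 was −0.15. NOP10 lost its call in 6 of the 12 fits that leave out a library. NOP58 was called higher at 0.46 (SE 0.07), though with spike-in scaling it lay below 0 at −0.38. Among 12 assembly factors 11 were not called, and SHQ1, a chaperone of the H/ACA enzyme, was called higher at 0.29 (SE 0.09, adjusted p = 0.0163 in edgeR), which with spike-in scaling became −0.50. The SHQ1 call was also lost with the RNA integrity number as a covariate (0.25, adjusted p = 0.0683 in edgeR) and without a filter on low counts (0.30, adjusted p = 0.0655 in edgeR). The median of the assembly factors was 0.01.

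Lists of transcripts with TOP starts or under nonsense-mediated decay gave smaller or mixed values, beside 20.2% of all genes called lower and 20% higher. In a list of 12 tested genes with a TOP start, most of them translation factors, 4 were called lower and 8 were not called, with a median of −0.09. EIF3E (−0.44, SE 0.09) and EEF1B2 (−0.36, SE 0.09) had the smallest adjusted p. Of these 4, EEF1B2, EEF2 and TPT1 are snoRNA hosts that were also counted among the other protein-coding hosts above. Of 14 factors of nonsense-mediated decay and the exon junction complex 5 were called higher and 4 lower, with a median of 0.10, whereas with spike-in scaling 7 were called lower and 7 were not called, with a median of −0.72. Of 10 protein-coding targets of that decay 5 were called lower and 1 higher, with a median of −0.29. The stress transcription factors ATF4 (−1.31, SE 0.08), DDIT3 (−1.06, SE 0.10) and ATF3 (−0.81, SE 0.09) fell, and GADD45B (1.11, SE 0.10) rose, though with spike-in scaling GADD45B was not called (0.31, adjusted p = 0.374). Of 14 long noncoding RNAs that host no snoRNA 4 were called lower and 3 higher, with a median of −0.02, and with spike-in scaling 8 were called lower and 6 were not called, beside 59% of all genes called lower on that scale. OIP5-AS1 (−0.57, SE 0.06), CRNDE (−0.54, SE 0.09) and LINC00511 (−1.44, SE 0.28), which had the smallest adjusted p among those called, fell. LINC00511 was counted only 2 to 27 times per SUPT4H1 library. KCNQ1OT1 (0.97, SE 0.29), LINC-PINT (0.61, SE 0.19) and TUG1 (0.36, SE 0.12) were called higher.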

How the data were processed

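RNA 3′ ends were sequenced from 12 libraries (QuantSeq 3′ FWD kit, 200 ng of RNA each), per the labels' protocols. The values are raw counts per gene, whole numbers in 1 table that the authors deposited. FastQC 0.11.5, STAR, MultiQC and R 3.4.3 were used with GRCh38.p10, per the submitters' processing notes; for the counting tool, annotation and strand setting, nothing is given in the sources used here. The 92 ERCC rows and the reporter row stayed out of library sizes and tests.

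Counts were tested with edgeR 4.0.16 (limma 3.58.1, R 4.3.3; robust quasi-likelihood test, TMM, default filterByExpr) over all 12 libraries, and p-values were adjusted by Benjamini-Hochberg over 13811 genes with a threshold of 0.05. Library depth limits the precision for members near the filter. For spike-in scaling, library sizes were the summed counts of 23 ERCC standards of subgroup B, an assignment written from general knowledge of the product. Alternatives were other scalings, filters, tests (DESeq2 1.42.0, limma-voom, glmTreat), covariates and leaving out each library. Positions came from GENCODE release 29 (GRCh38), and nested small RNAs and starts from RefSeq (GRCh38.p14). For the start search, the motif was a run of C or T of at least 5 bases from the start base on the gene's strand.

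The members and the 8 comparison lists were chosen with earlier results of these data known. Every member is accounted for. From each list up to 4 genes with the smallest adjusted p among those called are named. From the long noncoding RNAs that host no snoRNA, those called higher are named as well, and from the core proteins that bind snoRNAs, those not called. Genes beside or across members were found by position, with those named picked after their values were seen. The 30 within-group pairs of libraries all differed by more than sampling noise (chi-square 4.45 to 34.7 per degree of freedom), so no library was a copy of another. Scripts were tested on simulated counts.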

Additional observations from a re-analysis of the deposited data

Results flagged for a closer look

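Of 56 groups of 6 values examined (the tested members by group, and summary measures per library), 3 held a library far from the other 5 by Dixon's criterion, where chance flags about 1 in 20 groups. SNHG1 with SUPT4H1 siRNA stood at 69.9 CPM in replicate 2, below the 81.0 to 86.5 CPM of the other 5 libraries. SNHG21 with SUPT4H1 siRNA stood at 5.70 CPM in replicate 6, above the 1.21 to 1.84 CPM of the others, and this is the library without which its log2 fold change went from 1.01 to 0.55. Member counts per count of ERCC subgroup B with SUPT4H1 siRNA stood at 3.68 in replicate 5, above the 1.27 to 2.03 of the others. The same replicate had the smallest ERCC share of its group, 0.793% of all counts beside up to 2.45% in the others. These values were not tested further.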

How the results depend on the processing

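Of the 25 tested members 21 kept their call in up to 20 settings other than spike-in scaling, and 19 of the 20 called lower also did so with spike-in scaling; DANCR, SNHG21, SNHG8 and SNHG9 did not. The number called lower was 20 as reported, 19 with the RNA integrity number as a covariate (without DANCR), 18 at an adjusted p under 0.01, 12 with glmTreat against a 1.5-fold change, 9 when only the 13 members without a gene on the opposite strand were counted (fewer genes by construction), and 19 to 21 when 1 library was left out. The number called higher was 1 as reported, 0 with spike-in scaling, 2 without a filter on low counts (SNHG21 and SNHG9), 0 with a minimum of 5 CPM (SNHG21 is then not tested), 0 with limma-voom and 0 to 1 when 1 library was left out. It was 0 without scrambled siRNA replicates 2, 4 or 5, and the 1 call with the RNA integrity number as a covariate was SNHG9, not SNHG21. Spike-in-scaled falls numbered 23 as reported and 23 to 24 with a library left out. The nested rows called lower numbered 1 as reported and 3 with spike-in scaling, and could not be tested at 5 CPM. A run of at least 7 at the start was found at 16.7% of host starts, beside 2.63% of all starts and 3.78% of genes with at least 1 count. With spike-in scaling the values that changed sign were those of SNHG9 (−0.55), ZNFX1 (−0.42), ZBTB37 (−0.45), GLRX5 (−0.10), TRNAU1AP (−0.76), EPB41L4A (−0.74, and −0.077 without SUPT4H1 siRNA replicate 6, with up to 0.17 when another library was left out), TRAF7 (−0.78), MED17 (−0.58), NOP58 (−0.38) and SHQ1 (−0.50). Apart from what follows from the scaling or the genes counted, the cause was not tested.

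With the replicate number as a block, 20 members were called lower and 0 higher, and SNHG21 stood at 0.91 (adjusted p = 0.119). The numbers did not pair the libraries: the correlation of deviations between same-numbered libraries was −0.32 to 0.07, with 0 of 6 over 0.1 and 0 of 6 scrambled libraries closest to their own number. Depth limits SNHG11, SNHG20, SNHG21 and MIR17HG, and 4 members could not be tested.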

Other observations

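The 10 bases before the annotated start of GAS5 were identical to those before the start of EPB41L4A-AS1, and no other of the 35116 annotated starts in the promoter table was preceded by them. GAS5 and EPB41L4A-AS1 had relative log2 fold changes of −1.33 and −1.31. This match was noticed after the values were seen, and nothing was tested on it. There are many more possible stretches of 10 bases than starts here, so the absence of others carries little weight.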
